A study of Homo sapiens with 12 samples.

Results

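RD cells, an established line from a human embryonal rhabdomyosarcoma, had been transduced with PAX3-FKHR-ER and were compared with and without 4-hydroxytamoxifen (4-OHT). PAX3-FKHR-ER is the fusion of PAX3 and FKHR joined to a modified ligand-binding domain of the estrogen receptor, so that 4-OHT switches on fusion protein already made in the cells. The cells labelled PAX3-FKHR-ER with 4-OHT received 30 nM for 24 h, and those labelled PAX3-FKHR-ER without 4-OHT received none. Each group had 3 Affymetrix U133A arrays, numbered replicates 1 to 3, so the comparison used 6 of the series' 12 arrays, chosen by their titles. The other 6 arrays came from RD cells that carried the empty vector pK1, given 4-OHT or not in the same way. Per the design text 3 populations carried each construct, but the labels do not say whether a replicate number marks a population, so the tests measure the spread between these samples, which may be technical. All 22215 non-control probe sets of 22283 were examined, and a value below is a probe set signal on the authors' linear intensity scale unless it is called a log2 change. All arrays have the same trimmed mean signal, so these values cannot show a shift in the RNA content of the cells.

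PAX3-FKHR is the fusion protein that defines most alveolar rhabdomyosarcomas. It keeps the DNA-binding domains of PAX3, a regulator of muscle precursors, and the activation domain of FKHR, now called FOXO1. RD cells lack the fusion and already belong to the muscle lineage: they make the myogenic factor MYOD1 but differentiate poorly. In normal muscle, MYOD1 and myogenin switch on the genes of contraction as cells leave the cycle and fuse. MYOD1 was clearly measured here, at 1216, 1912 and 1809 with 4-OHT, against 1006, 1380.0 and 1111 without in replicates 1, 2 and 3. DES, which encodes the muscle filament desmin, and the acetylcholine receptor subunit CHRNA1 were measured as well, and MYF5 never exceeded 15.5. The 15 markers of endothelial, blood, epithelial and fibroblast cells on the array summed to between 367 and 657 with 4-OHT and between 347 and 703 without. None of them was at 0, their highest single signal was 166, and 0 of the 5 that were tested passed.

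The replicate 1 arrays stood apart and were therefore kept beside replicates 2 and 3. Control RNA spiked into the samples, read by 24 probe sets, had a median signal of 2.58 to 4.45 on the PAX3-FKHR-ER arrays of replicate 1 and of 137 to 291 on those of replicates 2 and 3. Log2 signals of replicate 1 correlated with those of replicates 2 and 3 at 0.839 to 0.863, against 0.931 to 0.953 between replicates 2 and 3. The levels of single genes differed as much: 71 of 13329 probe sets were over 8-fold lower on the replicate 1 arrays than on the other 4, and 21 were over 8-fold higher. CAV1, which encodes the coat protein of caveolae, read 2.81, 1380.2 and 1252 with 4-OHT, against 4.49, 579.9 and 469 without in replicates 1, 2 and 3. In the cells labelled pK1 the replicate 1 arrays read 3.70 with 4-OHT and 5.82 without, so the low CAV1 signal ran with the replicate number and not with the construct. Of the genes joined in the construct, FOXO1 read 138, 78.3 and 83.9 with 4-OHT, against 142, 146 and 124 without in replicates 1, 2 and 3, a log2 change of -0.63, adjusted p = 0.285 in replicates 2 and 3. PAX3 read 58.9, 92.7 and 73.1 with 4-OHT, against 17.6, 98.9 and 105 without, a change of -0.26, adjusted p = 0.743. In replicates 2 and 3 both arrays with 4-OHT lay below both without for either gene, and neither change passed. The brightest ESR1 probe set did not pass either (0.18, adjusted p = 0.888). The probe sets may read the cells' own transcripts as well as the construct's.

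With all 3 pairs in the fit, 0 of 13329 probe sets passed (0%), with 894 at an unadjusted p under 0.05 (6.71%). In replicates 2 and 3 alone, 186 probe sets passed (1.4%), of which 106 rose (0.795%) and 80 fell (0.6%) with 4-OHT, with 1579 at an unadjusted p under 0.05 (11.8%). The tests were paired fits with limma on log2(signal + 16), with a Benjamini-Hochberg adjusted p held against 0.05, and log2 changes are given with their standard errors. The 186 probe sets named 79 genes that rose and 66 that fell, and 0 genes had calls in both directions. The change exceeded 2-fold for 62 of the probe sets that rose and for 42 of those that fell, and the smallest one that passed was 0.59 on the log2 scale. Both arrays with 4-OHT lay on the same side of both arrays without for 175 of the 186, a property that 28.9% of all probe sets had. The fit rested on 2 pairs of PAX3-FKHR-ER arrays and 2 of vector arrays: without either PAX3-FKHR-ER pair 0 probe sets passed (1064 and 1418 at an unadjusted p under 0.05), and without the pairing 0 passed (270).

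**Figure D1:**
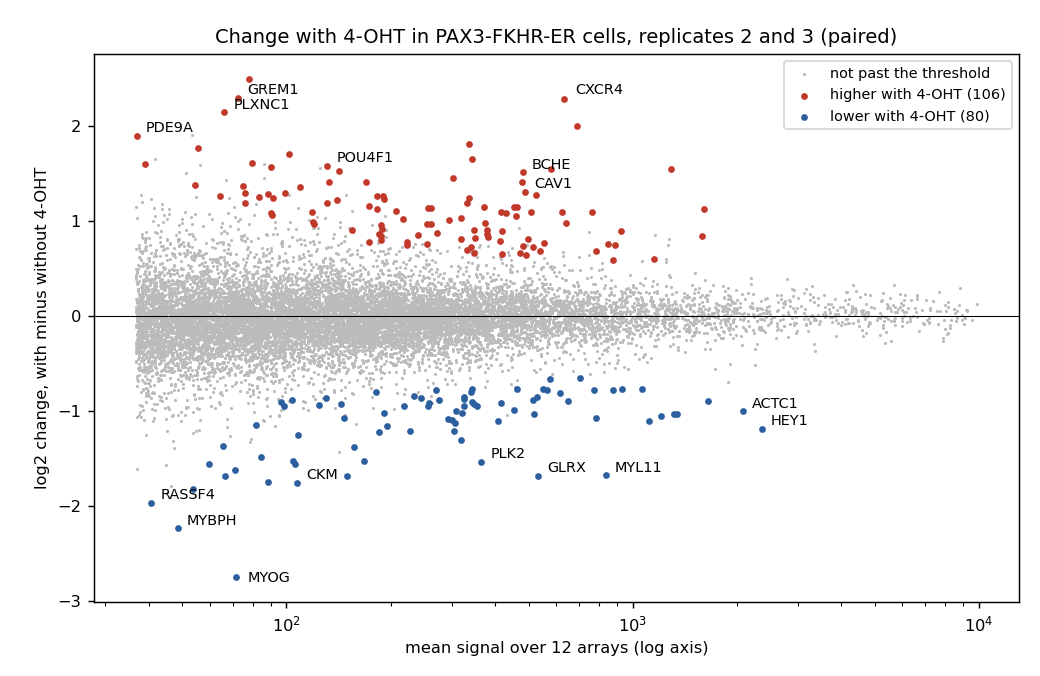
Mean signal over the 12 arrays (log axis) against the paired log2 change with minus without 4-OHT in PAX3-FKHR-ER cells of replicates 2 and 3, 1 point for each of 13329 probe sets. The 106 red points passed and were higher with 4-OHT, led among named genes by GREM1, CXCR4 and PLXNC1, and the 80 blue points passed and were lower, led by MYOG at -2.74.

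Regulators and products of late muscle differentiation were the leading genes that fell in replicates 2 and 3. Myogenin (MYOG), the transcription factor that drives terminal differentiation, read 53, 20.8 and 19.7 with 4-OHT, against 13.4, 298 and 172 without in replicates 1, 2 and 3. Its log2 change in replicates 2 and 3 was -2.74 ± 0.25 (adjusted p = 0.00327), the largest of any probe set that passed. In those replicates both arrays with 4-OHT lay far below both without, whereas in replicate 1 the array with 4-OHT was the higher one, by 1.23 on the log2 scale. MYBPH, myosin-binding protein H of the thick filament, read 22.6, 6.04 and 23.2 with 4-OHT, against 8.44, 119 and 126 without. It fell by 2.23 ± 0.28 on the log2 scale (adjusted p = 0.00892) in replicates 2 and 3, where the groups did not overlap, and like MYOG it was higher with 4-OHT in replicate 1. CKM, the muscle creatine kinase that buffers ATP, read 6.93, 109.6 and 36.7 with 4-OHT, against 4.98, 398 and 166 without. Its change was -1.75 ± 0.19 (adjusted p = 0.00782), and in replicate 1 both arrays were near the lower limit of the scale. The short protein myomixer (MYMX), which lets myoblast membranes fuse, read 105, 72.1 and 43.4 with 4-OHT, against 109, 261 and 149 without. It changed by -1.56 ± 0.21 (adjusted p = 0.0113) in replicates 2 and 3, with little difference in replicate 1.

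MYL11, the regulatory light chain of fast-muscle myosin, read 60.2, 822 and 448 with 4-OHT, against 139, 2503 and 1558 without. It was the single probe set of 13329 that was lower by more than 1 on the log2 scale in all 3 pairs, at -1.02 in replicate 1 and -1.68 ± 0.13 (adjusted p = 0.00177) in replicates 2 and 3. The embryonic myosin heavy chain MYH3 read 1.61, 28.2 and 3.03 with 4-OHT, against 12.8, 147 and 28.3 without. It changed by -1.55 ± 0.28 (adjusted p = 0.0329) and was also lower with 4-OHT in replicate 1, though both of those signals were small. TNNC2, the calcium sensor of fast troponin, changed by -1.21 ± 0.18 (adjusted p = 0.0165), ATP2A1, the calcium pump of the fast-muscle reticulum, by -1.49 ± 0.19 (adjusted p = 0.00892), and MYL1, an essential light chain, by -1.03 ± 0.12 (adjusted p = 0.00808). TNNC2 also fell in the vector pairs, by -1.04, -0.46 and -0.62 in replicates 1, 2 and 3. The limma difference between its changes in fusion and vector cells of replicates 2 and 3 was -0.67 and did not pass (adjusted p = 0.429). Cardiac actin (ACTC1), which immature skeletal muscle also makes, was the brightest of these genes, at 1254, 2481 and 1685 with 4-OHT, against 769, 5601 and 3015 without. It changed by -1.0 ± 0.13 (adjusted p = 0.00892) in replicates 2 and 3 and in the other direction in replicate 1 (0.69).

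The 250 bases before the transcription start are printed for the 3 muscle genes that fell most, MYOG, MYBPH and CKM, and for POU4F1, a fusion target that rose. MYOG and MYBPH lie near each other on chromosome 1, with starts 89814 bases apart. Capitals mark the E-box letters CANNTG, the core bound by MYOD1 and myogenin, searched on both strands, where the motif reads alike. The sequences are RefSeq's on GRCh38.p14, read 5′ to 3′ along each gene.
MYOG, chr1:203086013-203086262, minus strand: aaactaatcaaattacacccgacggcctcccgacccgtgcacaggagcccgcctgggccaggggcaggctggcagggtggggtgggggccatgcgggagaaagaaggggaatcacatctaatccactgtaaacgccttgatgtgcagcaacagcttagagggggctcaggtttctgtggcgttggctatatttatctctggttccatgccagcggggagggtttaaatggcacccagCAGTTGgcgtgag
MYBPH, chr1:203175827-203176076, minus strand: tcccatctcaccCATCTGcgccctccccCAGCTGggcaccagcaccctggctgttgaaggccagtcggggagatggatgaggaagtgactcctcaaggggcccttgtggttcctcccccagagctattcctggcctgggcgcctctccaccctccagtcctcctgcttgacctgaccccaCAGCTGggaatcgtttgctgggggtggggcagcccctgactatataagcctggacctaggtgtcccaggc
CKM, chr19:45322876-45323125, minus strand: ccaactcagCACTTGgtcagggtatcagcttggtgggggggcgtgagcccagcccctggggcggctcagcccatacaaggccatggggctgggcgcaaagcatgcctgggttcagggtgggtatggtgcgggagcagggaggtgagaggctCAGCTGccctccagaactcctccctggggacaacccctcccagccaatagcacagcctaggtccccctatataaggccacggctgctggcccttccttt
POU4F1, chr13:78603553-78603802, minus strand: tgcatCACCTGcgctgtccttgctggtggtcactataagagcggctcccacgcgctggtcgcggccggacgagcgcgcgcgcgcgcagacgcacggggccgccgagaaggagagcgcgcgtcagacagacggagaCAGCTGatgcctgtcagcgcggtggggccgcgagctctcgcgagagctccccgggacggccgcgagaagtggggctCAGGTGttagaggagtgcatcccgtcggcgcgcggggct
The MYOG window held 1 match, which began 13 bases before the start. MYBPH held 3, and CKM held 2. POU4F1, which rose, held 3 as well. Of the windows of genes that fell 66.67% of 75 held a match, and of genes that rose 53% of 100. Counted by gene, 79.59% of the 49 genes that fell and had a window held a match in at least 1, and 58.33% of the 60 that rose, beside 61.36% of the 6729 tested genes with a window, as a description without a test. The letters are common, as 54.29% of the 10121 windows of tested genes and 61.82% of all 35116 RefSeq windows of this length held one. A match in a window is a description of its letters and not evidence of binding.

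Of the 32 contraction genes tested, taking the brightest probe set of each, 8 fell and 0 rose, where 0.689% of all 8124 genes tested fell and 0.8% rose. The median change of the 32 was -0.56, with 28 of them negative, beside a median of -0.03 and 4489 negative over the 8124 genes tested. These values over all genes are also the background for the counts and medians of every list below. Without the filter on dim probe sets, which adds members, the median was -0.31. The remaining members did not pass, and those with the smallest p were DES (-0.53, adjusted p = 0.14), MYL4 (-0.57, adjusted p = 0.182) and the calcium release channel RYR1 (-0.76, adjusted p = 0.189). The thin-filament tropomyosins TPM1 (0.00, adjusted p = 0.999) and TPM2 (0.38, adjusted p = 0.23) did not pass either. In PAX3-FKHR-ER replicate 1 the median of the 32 was -0.04, against -0.51 and -0.62 in replicates 2 and 3. The vector pairs had medians of -0.31, -0.05 and -0.13 in replicates 1, 2 and 3.

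**Figure D2:**
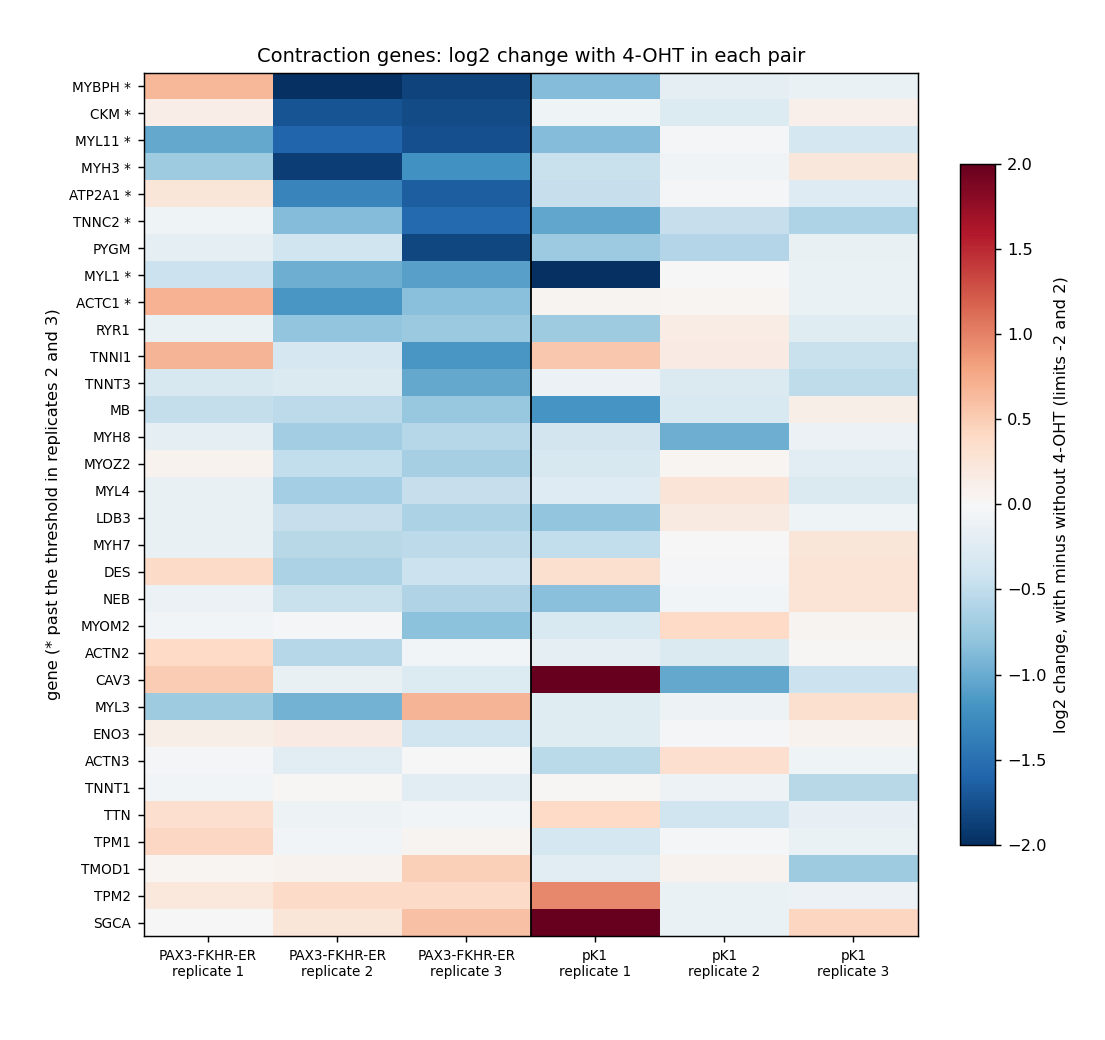
Log2 change with minus without 4-OHT of the 32 tested contraction genes (rows, ordered by the change in replicates 2 and 3) in each of the 3 PAX3-FKHR-ER pairs and the 3 pK1 pairs, blue for lower and red for higher with 4-OHT. The 8 genes with an asterisk passed in replicates 2 and 3, and of those MYL11 was the one below -1 in all 3 PAX3-FKHR-ER pairs.

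Among 21 tested regulators of myogenesis 2 fell and 0 rose. They were MYOG and ID3 (-0.66 ± 0.13, adjusted p = 0.0484), a protein that keeps MYOD1 family members from binding DNA. MYOD1 itself (0.58, adjusted p = 0.0625), the repressor SNAI2 (0.63, adjusted p = 0.0981) and MEF2C (-0.85, adjusted p = 0.112), the partner of MYOD1 in activating muscle genes, did not pass. At the neuromuscular junction list 1 of 9 genes rose: butyrylcholinesterase (BCHE), a secreted enzyme that splits choline esters. BCHE read 40.8, 1624 and 1559 with 4-OHT, against 20.8, 583 and 514 without, and changed by 1.51 ± 0.12 (adjusted p = 0.00177). In replicates 2 and 3 the groups lay far apart, and on the dim replicate 1 arrays the signal with 4-OHT was also the higher one. The receptor subunit CHRND did not pass (-0.56, adjusted p = 0.204).

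CXCR4, the receptor for the chemokine CXCL12, had the smallest adjusted p of all 186 probe sets. That probe set read 198, 2126 and 2459.8 with 4-OHT, against 119, 474 and 444 without, a log2 change of 2.28 ± 0.14 (adjusted p = 0.0011). The replicate 1 arrays read far lower than the others, with the array with 4-OHT above the one without by 0.66 on the log2 scale. Its second probe set changed by 2.0 ± 0.14 (adjusted p = 0.0013) and a further one by 1.55 ± 0.22 (adjusted p = 0.0129), and their replicate 1 changes were 0.18 and 0.10. The adaptor beta-arrestin 1 (ARRB1), which uncouples and internalizes such receptors, rose too, at 358, 426 and 491 with 4-OHT, against 322, 135 and 105 without. It changed by 1.81 ± 0.17 (adjusted p = 0.00476) in replicates 2 and 3 at that probe set, all 4 of its tested probe sets passed in the same direction, and replicate 1 was bright in both arrays. RGS16, which speeds the switching off of G proteins behind these receptors, fell. Its brighter probe set read 231, 148 and 286 with 4-OHT, against 167, 419.9 and 672 without, a change of -1.30 ± 0.13 (adjusted p = 0.00695), with the reverse order in replicate 1. VAV3, a guanine nucleotide exchange factor, read 72.8, 433 and 405 with 4-OHT, against 76.4, 120.0 and 182 without and changed by 1.40 ± 0.19 (adjusted p = 0.0102). Of the 14 tested genes of the chemokine receptor axis 2 rose and 1 fell, and their median was -0.17. GRK5 (-0.65, adjusted p = 0.168), RGS3 (-0.66, adjusted p = 0.18) and RGS2 (-0.49, adjusted p = 0.318) did not pass.

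GREM1 and FST, secreted antagonists of the TGF-beta family, rose. Gremlin 1 (GREM1), which binds bone morphogenetic proteins, read 14.9, 292 and 321 with 4-OHT, against 1.65, 63.7 and 38.3 without and changed by 2.29 ± 0.26 (adjusted p = 0.00808). Its second probe set changed by 1.61 ± 0.25 (adjusted p = 0.0197), and both were dim in replicate 1. Without the bright arrays with 4-OHT the first probe set would have fallen below the signal filter. Follistatin (FST), which binds activins and myostatin, read 108, 505 and 328 with 4-OHT, against 119, 217 and 118 without and changed by 1.26 ± 0.15 (adjusted p = 0.00808), while its dimmer probe set did not pass (0.58, adjusted p = 0.488). Of 27 tested genes of BMP and TGF-beta signalling 2 rose, these antagonists, and 1 fell, the BMP-responsive ID3. The latent binding protein LTBP1 (0.62, adjusted p = 0.121) and ID1 (-0.40, adjusted p = 0.337) did not pass.

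Of 25 tested genes known as targets of the fusion 4 rose (CXCR4, GREM1, POU4F1 and PRKAR2B) and 2 fell (MYOG and HEY1). Over all 8124 genes tested 0.8% rose and 0.689% fell. The list of fusion targets was drawn from general knowledge of the fusion, including earlier work on it, so its count is no independent evidence. POU4F1, a neuronal POU-domain transcription factor, read 65.3, 447 and 293 with 4-OHT, against 39.5, 192 and 61 without and changed by 1.58 ± 0.23 (adjusted p = 0.0156). Its brighter probe set changed by 1.19 ± 0.16 (adjusted p = 0.0121), and in replicate 1 both probe sets were also higher with 4-OHT. MYCN, whose gene is often amplified in alveolar tumours, read 158, 177 and 90.1 with 4-OHT, against 124, 39.5 and 47.4 without and missed the threshold (1.27, adjusted p = 0.114). FGFR4, a growth factor receptor that the fusion is known to bind, read 575, 395 and 347 with 4-OHT, against 509, 479 and 483 without and did not pass (-0.36, adjusted p = 0.344). The median of the 25 was 0.26 in replicates 2 and 3, with 16 positive, beside -0.03 and 3635 positive over the 8124 genes tested. Without the filter on dim probe sets the median of the fusion targets was 0.04. RASSF4, a regulator of the Hippo kinases in human rhabdomyosarcoma, read 39.1, 23.2 and 5.42 with 4-OHT, against 16.1, 98.6 and 95.3 without at the probe set that passed, a change of -1.96 ± 0.32 (adjusted p = 0.0238). Its brighter probe set changed by -1.24 and missed the threshold (adjusted p = 0.0556), so that the gene was not counted among the 2 that fell.

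Feedback regulators of the ERK pathway were among the genes that fell. DUSP4, a phosphatase that inactivates ERK in the nucleus, read 263, 50.3 and 41.6 with 4-OHT, against 233, 247 and 133 without and changed by -1.68 ± 0.24 (adjusted p = 0.0138). A second DUSP4 probe set changed by -1.53 ± 0.27 (adjusted p = 0.0318) and was lower with 4-OHT in replicate 1 as well (-0.80). The inhibitor SPRY4 changed by -0.90 ± 0.15 (adjusted p = 0.0262), and the ERK-induced gene PHLDA1 by -0.99 ± 0.13 (adjusted p = 0.0101). These 3 of 21 tested genes fell and 0 rose, where 0.689% of all genes tested fell. Their median was -0.25, and 18 of the 21 were negative, beside 4489 of all 8124. CCND1, the cyclin that growth factors induce, lay just outside (-0.78, adjusted p = 0.0688), as did the phosphatase DUSP7 (-0.80, adjusted p = 0.0712). MAP2K1, the kinase MEK1 that activates ERK, was counted outside the list and read 667, 867 and 949 with 4-OHT, against 649, 2366 and 1637 without, a change of -1.10 ± 0.17 (adjusted p = 0.0188).

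Of 20 receptor kinases and insulin-like growth factor genes 1 fell and 0 rose. It was IGFBP3, a carrier of insulin-like growth factors, which changed by -1.25 ± 0.20 (adjusted p = 0.0228). MET, the receptor for hepatocyte growth factor, passed at 1 probe set (1.16 ± 0.17, adjusted p = 0.0177) but not at its brightest (0.70, adjusted p = 0.285). Outside that list the adaptor GRB10, which dampens insulin receptor signalling, fell at 1 of its 3 probe sets (-0.91 ± 0.13, adjusted p = 0.0163), and SOCS2, a suppressor of growth hormone signalling, rose at both of its probe sets (1.22 ± 0.17, adjusted p = 0.0121 at the larger change). PDGFC, a ligand of platelet-derived growth factor receptors, rose by 1.09 ± 0.18 (adjusted p = 0.0249), and PGF, a ligand of the VEGF family, fell (-0.95 ± 0.17, adjusted p = 0.0365).

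Regulators of cyclic nucleotides moved in both directions. PDE9A, which degrades cyclic GMP, read 4.13, 46.9 and 89.9 with 4-OHT, against 3.88, 4.38 and 7.55 without and changed by 1.90 ± 0.26 (adjusted p = 0.0121). It was nearly unmeasurable without 4-OHT and in replicate 1, so the log2 change depends on the amount added before the transform. Without its bright arrays with 4-OHT it would also have fallen below the signal filter. PRKAR2B, a regulatory subunit of protein kinase A, read 45.8, 103 and 102 with 4-OHT, against 63.3, 25.4 and 13.1 without and changed by 1.77 ± 0.28 (adjusted p = 0.0213), with the reverse order in replicate 1. The kinase inhibitor PKIA fell (-0.92 ± 0.15, adjusted p = 0.0267), and so did SIK1, a kinase whose gene cyclic AMP induces (-1.07 ± 0.19, adjusted p = 0.0318), though SIK1 was higher with 4-OHT in replicate 1 (0.57). Of the 30 tested genes of the list 2 rose and 1 fell, with a median of -0.11.

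The GTPase RAB27A, which docks secretory granules at the membrane, rose at 1 of its 3 probe sets. That one read 55.9, 108 and 165 with 4-OHT, against 59.2, 19.3 and 56.9 without and changed by 1.56 ± 0.21 (adjusted p = 0.0101), and the smallest change among the others was 0.20. SYTL2, a protein that binds active RAB27A, read 36.9, 75.2 and 138 with 4-OHT, against 29.1, 15.8 and 31.9 without and changed by 1.60 ± 0.27 (adjusted p = 0.03), and TBC1D9, of a family of Rab GTPase regulators, changed by 1.52 ± 0.20 (adjusted p = 0.00892) at 1 of its 2 probe sets, with 0.25 at the other. These 3 genes form no list and are placed together here after their values were seen. Without its arrays with 4-OHT in replicates 2 and 3, SYTL2 would have fallen below the signal filter. In replicate 1 their changes were -0.06, 0.23 and 0.21.

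Single genes of adhesion and guidance passed in replicates 2 and 3. PLXNC1, a plexin that binds semaphorin 7A, read 17.9, 355 and 169 with 4-OHT, against 14.8, 63.4 and 28.4 without and changed by 2.14 ± 0.23 (adjusted p = 0.00778). Without its bright arrays with 4-OHT it would have fallen below the signal filter. It was the 1 of 24 guidance genes that passed, beside PLXND1 (-0.69, adjusted p = 0.0635) and SEMA3A (0.64, adjusted p = 0.121), which did not. EPHB1, an ephrin receptor kinase, fell by 1.37 ± 0.24 (adjusted p = 0.0305), and CADM1, an immunoglobulin adhesion molecule, rose by 1.26 ± 0.15 (adjusted p = 0.00864). Of 26 cadherins and integrins the protocadherin PCDH7 rose (0.66 ± 0.13, adjusted p = 0.0484) and 0 fell. CAV1 rose at both of its probe sets, by 1.31 ± 0.12 (adjusted p = 0.00327) and 1.09 ± 0.14 (adjusted p = 0.00956), in replicates 2 and 3. The annexins ANXA1 (-1.05 ± 0.12, adjusted p = 0.00808) and ANXA11 (-0.78 ± 0.13, adjusted p = 0.0274), which bind membrane lipids in the presence of calcium, fell. Those were the 3 of 17 genes of caveolae, annexins and S100 proteins that passed.

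Of 48 matrix genes 1 rose and 2 fell at the brightest probe set, and their median was -0.01. The collagen gene COL1A1 fell at its dimmer probe set (-0.88 ± 0.16, adjusted p = 0.039) but did not pass at its brightest (-0.35). Fibronectin (FN1) rose at 2 of its 5 probe sets, by 1.12 ± 0.14 (adjusted p = 0.00864) at the brightest and 0.85 ± 0.13 (adjusted p = 0.0186) at another. Tenascin C (TNC), an adhesion-modulating protein of developing tissue, fell by 1.11 ± 0.12 (adjusted p = 0.00808), and the collagen cross-linking enzyme LOXL1 by 0.87 ± 0.15 (adjusted p = 0.0324). CCN2, the connective tissue growth factor, lay just outside (-1.14, adjusted p = 0.0518), and so did COL11A1 (1.27, adjusted p = 0.0625), in opposite directions. Among further genes of matrix turnover, the protease inhibitor SERPINE2 read 699.6, 2681 and 2253 with 4-OHT, against 502, 689 and 1003 without and changed by 1.54 ± 0.18 (adjusted p = 0.00808). P3H2, which hydroxylates collagen prolines, rose by 1.45 ± 0.19 (adjusted p = 0.00919), the protease ADAMTS5 by 1.10 ± 0.17 (adjusted p = 0.0177), and RECK, an inhibitor of matrix metalloproteases, changed by -1.10 ± 0.13 (adjusted p = 0.00808) at 1 probe set while another went the other way.

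In the Notch pathway 1 of 12 tested genes rose and 1 fell. HEY1, a repressor that Notch induces, read 3770.0, 545 and 1218 with 4-OHT, against 3840.4, 1508 and 2351 without at the probe set with the larger change, -1.19 ± 0.15 (adjusted p = 0.00892), and its second probe set changed by -1.03 ± 0.12 (adjusted p = 0.00808). Replicate 1 had the highest HEY1 signals of all, with little difference between its arrays. The receptor NOTCH2 rose (0.69 ± 0.12, adjusted p = 0.034) and did so in replicate 1 as well (0.51), while NOTCH3 (-0.67, adjusted p = 0.14) and the ligand JAG2 (-0.51, adjusted p = 0.133) did not pass. Of 21 Wnt genes 1 rose and 2 fell: LGR5, a receptor for R-spondins (0.86 ± 0.16, adjusted p = 0.039), against the ligand WNT5A (-0.95 ± 0.14, adjusted p = 0.0144) and the receptor FZD2 (-1.0 ± 0.18, adjusted p = 0.0389). TCF7L2, the nuclear partner of beta-catenin, rose at 2 of its probe sets, by up to 0.96 ± 0.14 (adjusted p = 0.0142), but not at its brightest (0.67, adjusted p = 0.0871).

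Transcription factors of other families changed as well. KLF4, a zinc-finger factor of differentiation and reprogramming, read 157, 954 and 687 with 4-OHT, against 77, 379 and 338 without and changed by 1.14 ± 0.14 (adjusted p = 0.00808), with a similar change of 0.89 in replicate 1. JUN, a subunit of AP-1, rose by 0.83 ± 0.13 (adjusted p = 0.0239), and these were the 2 of 20 immediate early genes that passed. NR2F1, an orphan nuclear receptor, read 27.8, 226 and 425 with 4-OHT, against 23.5, 123 and 123 without and rose by 1.23 ± 0.20 (adjusted p = 0.0249). CEBPD rose by 0.91 ± 0.13 (adjusted p = 0.0125), OSR2 by 1.24 ± 0.19 (adjusted p = 0.0177) and PBX3 by 0.81 ± 0.13 (adjusted p = 0.0203), and the repressor ZBTB18 changed by -1.09 ± 0.14 (adjusted p = 0.00892). SOX4 rose in replicates 2 and 3 (0.78 ± 0.15, adjusted p = 0.0482) but was lower with 4-OHT in replicate 1 (-0.82). Of 22 neuronal genes 2 rose, POU4F1 and CRMP1 (0.92 ± 0.14, adjusted p = 0.0173), a mediator of semaphorin signals, and 1 fell, the neurofilament gene NEFM (-0.86 ± 0.13, adjusted p = 0.0188). The sodium channel SCN3A, outside that list, rose by 1.37 ± 0.26 (adjusted p = 0.0447).

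Few genes of growth control passed. Among 21 G1 genes cyclin E1 (CCNE1) rose (0.82 ± 0.16, adjusted p = 0.0482) and cyclin D2 (CCND2) fell, at 2192, 1331 and 911 with 4-OHT, against 2316, 2531 and 1689 without, a change of -0.90 ± 0.11 (adjusted p = 0.00892). The F-box protein SKP2 passed at 1 probe set (1.05 ± 0.19, adjusted p = 0.0327) but not at its brightest (0.46, adjusted p = 0.155). Of 44 genes of S phase and mitosis 0 passed, and AURKB (0.45, adjusted p = 0.207) came nearest. Their median was 0.04, with 32 positive, beside -0.03 and 3635 positive over all 8124 genes tested. Among 17 p53 targets GADD45A rose (0.98 ± 0.12, adjusted p = 0.00864), which was also the 1 of 14 FOXO-responsive genes that passed, and PLK2 fell. PLK2, a stress-induced polo-like kinase, read 426, 116 and 181 with 4-OHT, against 454, 389 and 521 without, a change of -1.53 ± 0.13 (adjusted p = 0.00238), with nearly equal signals in replicate 1. The p53 target CDKN1A did not pass (-0.26, adjusted p = 0.479). The DNA repair genes XRCC4 (1.36 ± 0.27, adjusted p = 0.04999) and LIG3 (1.29 ± 0.20, adjusted p = 0.019) rose, each at 1 probe set while another of the same gene went the other way without passing, and the same held for the chromatin reader ING4, at 1.70 and -0.52.

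The lists of redox genes, of the amino acid response and of hypoxia and glycolysis held 1 or 2 calls each. Glutaredoxin (GLRX), which removes glutathione from proteins, read 816, 124 and 175 with 4-OHT, against 947, 469 and 547 without and changed by -1.68 ± 0.13 (adjusted p = 0.00177). It was the 1 of 31 redox genes that passed, and its second probe set changed by -0.95 ± 0.15 (adjusted p = 0.0188). TRIB3, a pseudokinase of the amino acid response, rose (0.96 ± 0.15, adjusted p = 0.0221), 1 of 34 genes of that response. Adrenomedullin (ADM, 0.76 ± 0.13, adjusted p = 0.0262) and NDRG1 (0.84 ± 0.16, adjusted p = 0.0408), both induced by hypoxia, rose among 34 hypoxia and glycolysis genes, and NDRG1 was higher in replicate 1 too (0.78). Stanniocalcin 1 (STC1) fell at 1 probe set (-1.74 ± 0.29, adjusted p = 0.0267) and missed the threshold at its brightest (-0.79, adjusted p = 0.104). The metallothionein MT1E fell (-0.80 ± 0.14, adjusted p = 0.0305), but its near-identical family members may share the probes. Carnitine acetyltransferase (CRAT) rose at 1 probe set by 1.37 ± 0.22 (adjusted p = 0.0252), and another of its probe sets went the other way.

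Of 32 interferon response genes 1 fell and 0 rose. IFIT1, which binds foreign RNA, read 119, 245 and 323 with 4-OHT, against 118, 488 and 634 without and changed by -0.95 ± 0.12 (adjusted p = 0.00892). Over all 8124 genes tested 0.689% fell and 0.8% rose. The median of the list was -0.30, with 26 of 32 negative, beside -0.03 and 4489 negative over all genes. IFITM1 (-0.80, adjusted p = 0.0729) did not pass. OASL fell at 1 probe set (-1.16 ± 0.15, adjusted p = 0.00892) and not at its brightest (-0.58, adjusted p = 0.119). IFI16, a DNA sensor named for its induction by interferon that was not in the list, rose at 2 probe sets. One read 39, 1126 and 1043 with 4-OHT, against 11.6, 413 and 561 without, a change of 1.14 ± 0.16 (adjusted p = 0.0121) in replicates 2 and 3, and it was higher with 4-OHT in replicate 1 as well. Besides the list of S phase and mitosis, those with 0 genes past the threshold were apoptosis (21 tested), MHC and antigen processing (16), estrogen-responsive genes (11), sterol synthesis (25), heat shock (26), the respiratory chain (40) and ribosomal proteins (34). The medians of these 7 lists lay between -0.12 for heat shock and 0.03 for the respiratory chain.

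**Figure D3:**
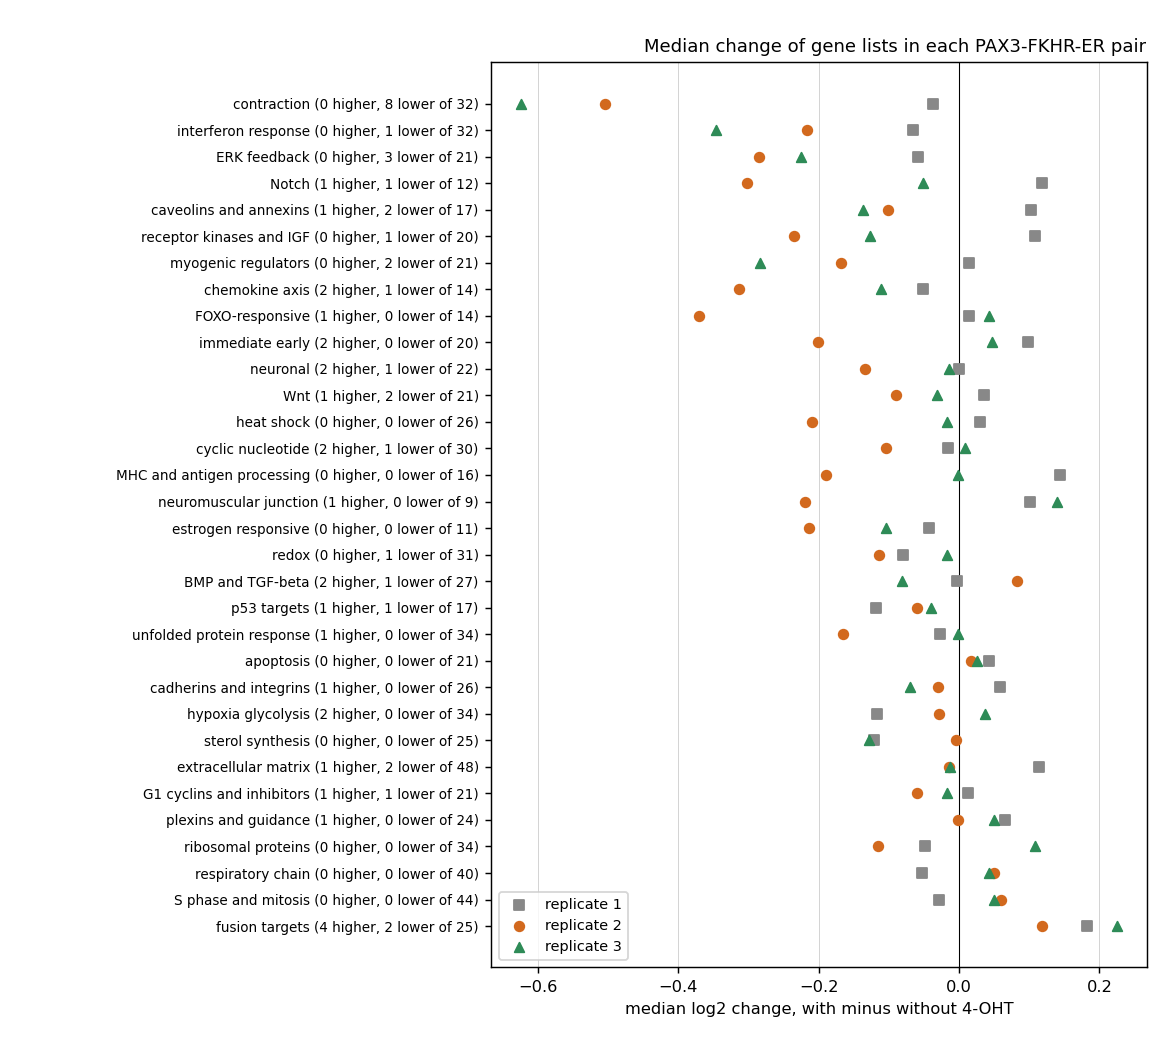
Median log2 change with minus without 4-OHT of 32 gene lists in each PAX3-FKHR-ER pair, ordered by the change in replicates 2 and 3, with the number of genes past the threshold and the number tested beside each name. The contraction list has the lowest medians in replicates 2 and 3 (-0.51 and -0.62) and lies near 0 in replicate 1 (-0.04).

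Different probe sets of the called genes mostly moved alike. Of 145 genes with a call, 80 had several tested probe sets, and in 73 of these all had the same sign. In 17 genes every tested probe set passed, among them CXCR4, ARRB1, GREM1, POU4F1, CAV1, DUSP4, HEY1, RGS16 and GLRX. In 63 genes at least 1 tested probe set did not pass, with changes as small as -0.03 for GRB10, 0.11 for SOX4, 0.22 for JUN and 0.33 for CADM1. In 7 genes at least 1 other probe set went the other way without passing: CYP1B1, LIG3, XRCC4, CRAT, RECK, ADISSP and ING4. The largest rise of all, 2.49 ± 0.28 (adjusted p = 0.00808), belonged to a probe set without a single gene symbol, 1 of 15 such probe sets among the 186.

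**Figure D4:**
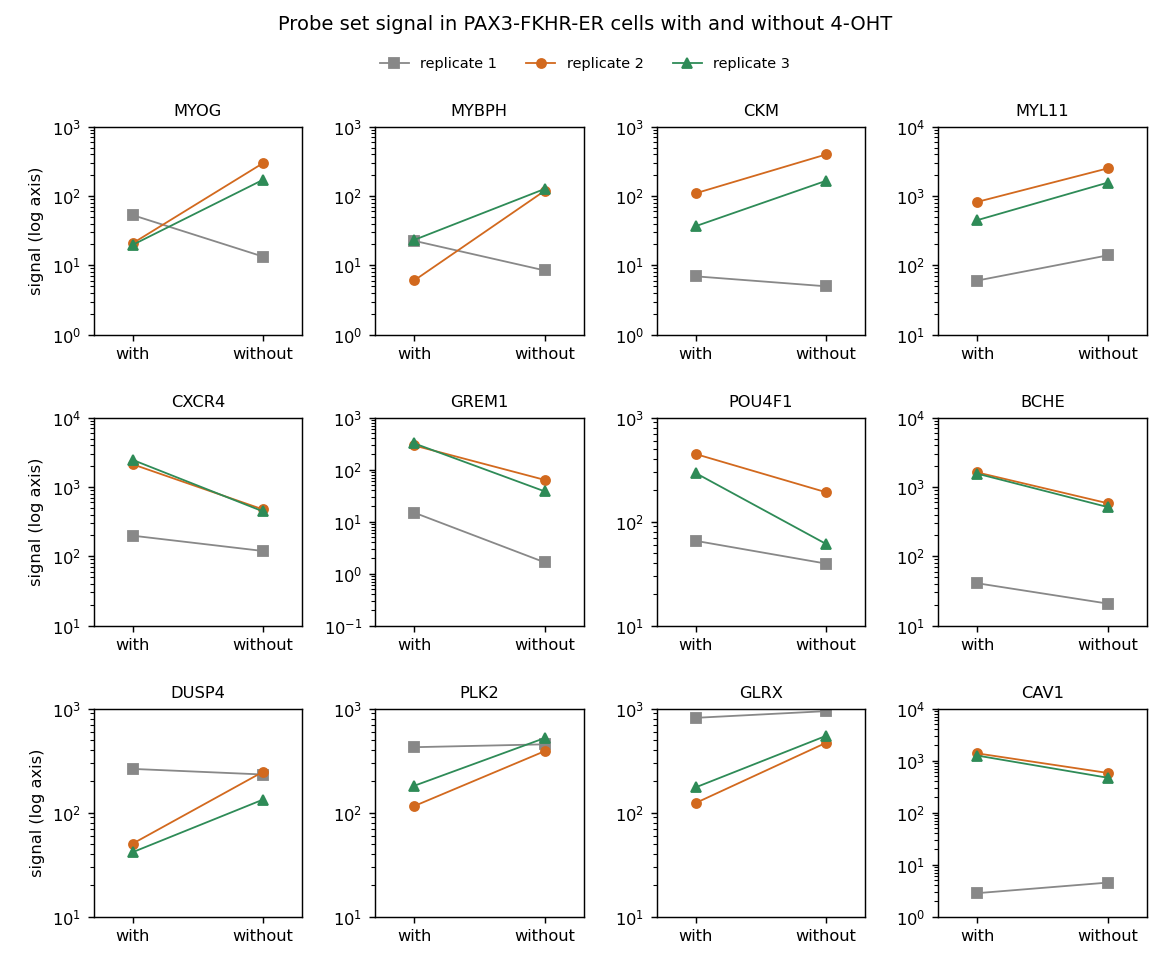
Signals (log axis) of 12 genes on the 6 PAX3-FKHR-ER arrays, with 4-OHT on the left and without on the right, joined within each replicate number. In replicates 2 and 3 MYOG, MYBPH, CKM, MYL11, DUSP4, PLK2 and GLRX are lower with 4-OHT and the other 5 higher, and the replicate 1 lines (grey) start from other levels, with CAV1 at 2.81 with and 4.49 without.

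The pair of replicate 1 labelled PAX3-FKHR-ER shared little of this response. Of the 106 probe sets that rose in replicates 2 and 3, 64 (60.4%) were higher with 4-OHT in replicate 1, with a median change of 0.08, where 51.2% of all tested probe sets were higher. Of the 80 that fell, 40 (50%) were lower, with a median of -0.01, where 48.8% of all were lower. A change of more than 0.5 in the same direction was seen for 15 of the 106 and 6 of the 80, and in the opposite direction for 4 and 6. Of all tested probe sets 4.52% rose by more than 0.5 in this pair and 3.67% fell by more than 0.5. Those that went the same way included CXCR4, GREM1, POU4F1, BCHE, KLF4, NOTCH2, NDRG1, IFI16, MYL11, MYH3 and DUSP4, and those that went the other way included MYOG, MYBPH, ACTC1, SIK1, SOX4 and CRMP1. Without 4-OHT in replicate 1, MYOG (13.4) and MYBPH (8.44) read below the 16 added before the transform, so a fall could hardly have been measured. CRMP1 (5.81 with and 27.0 without), GREM1 (14.9 with and 1.65 without) and MYH3 (1.61 with and 12.8 without) were dim there as well. The difference between replicate 1 and the other pairs was tested gene by gene, and 0 of 13329 probe sets passed (0%), with 952 at an unadjusted p under 0.05 (7.14%). MYOG, ACTC1, ATF6, RGS16 and GLRX had the smallest p among positive differences, with MYOG at 3.98 (adjusted p = 0.167). Among negative ones CXCR4, ING4, CRMP1, SOX4 and ARRB1 had it, with CXCR4 at -1.82 (adjusted p = 0.167). Across all tested probe sets the changes of replicate 1 correlated with those of replicates 2 and 3 at -0.01 and 0.01, and those of replicates 2 and 3 with each other at 0.29, as a description over probe sets that share each array.

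In replicate 1 many of the changes that PAX3-FKHR-ER cells showed in replicates 2 and 3 were seen under the pK1 label. There 85 of the 106 rising probe sets (80.2%) were higher with 4-OHT, where 43.3% of all tested probe sets were higher, and their median was 0.73. Of the 80 falling ones 64 (80%) were lower, where 56.7% of all were lower, and their median was -0.45. Of the 106, 0 exceeded 1 in PAX3-FKHR-ER replicate 1 and 35 did in pK1 replicate 1, where 73 and 220 of all 13329 tested probe sets did so. CXCR4 read 198 with and 119 without 4-OHT under the PAX3-FKHR-ER label in replicate 1, and 885 with and 180.2 without under the pK1 label. ARRB1 (1367 with and 384 without), KLF4 (1051 with and 157 without), BCHE (209 with and 38.0 without) and GREM1 (72.7 with and 15.4 without) were likewise higher with 4-OHT under the pK1 label, and the light chain MYL1 was lower (373 with and 1811 without). MYOG did not follow, at 35.6 with and 32.8 without. In the vector pairs of replicates 2 and 3 the same probe sets were near 0: 59 and 62 of the 106 were higher (55.7% and 58.5%, beside 47.6% and 51.5% of all), with medians of 0.05 in each, and 44 and 43 of the 80 were lower, with medians of -0.02 in each. Over the 186 probe sets, Pearson r with the mean change of PAX3-FKHR-ER replicates 2 and 3 was 0.12 for PAX3-FKHR-ER replicate 1 and 0.66 for pK1 replicate 1, as a description. Some probe sets annotated to the estrogen receptor gene ESR1 differed between the constructs as well, a comparison added after the values were seen. Whether they read the part of the receptor that is in the construct was not checked. At 1 ESR1 probe set the PAX3-FKHR-ER arrays of replicates 2 and 3 read 58.6 and 39.2 with 4-OHT and 121 and 76.2 without, against 5.05 and 5.78 with and 4.16 and 12.7 without in pK1 cells. In replicate 1 it read 44.7 with 4-OHT and 7.5 without under the PAX3-FKHR-ER label, against 58.4 with and 57 without under the pK1 label. In replicates 2 and 3 all PAX3-FKHR-ER arrays lay above all pK1 arrays at 4 of 9 ESR1 probe sets and below them at 0. At 3 of those 4 both PAX3-FKHR-ER arrays of replicate 1 lay below both pK1 arrays, and at the other they overlapped. One probe set each of PAX3 (of 3) and FOXO1 (of 2) was also higher in the PAX3-FKHR-ER arrays of replicates 2 and 3, with overlap in replicate 1. The other FOXO1 probe set overlapped in replicates 2 and 3. In replicate 1 it was higher under the PAX3-FKHR-ER label (257 to 313) than under the pK1 label (69.5 to 198). A further ESR1 probe set (29.4 to 33.0 against 39.4 to 63.2) and a further PAX3 probe set (8.52 to 39.0 against 40.6 to 46.4) were lower there, also with overlap in replicates 2 and 3. Most of these signals are dim, and of the 4 ESR1 probe sets named first 1 was bright enough to be tested. How often probe sets at large show such orders was not counted, so these counts cannot be set against a background. Whether labels, culture or handling differed for replicate 1 was not tested, and every sample stayed in the group its label gives.

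**Figure D5:**
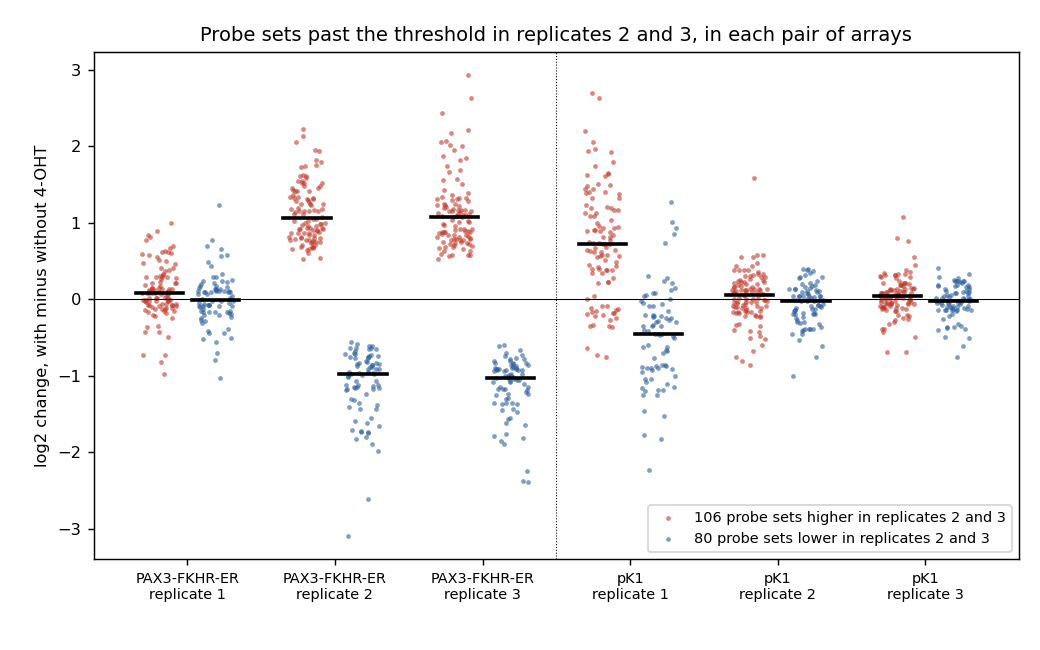
Log2 change with minus without 4-OHT of the 106 probe sets that rose (red) and the 80 that fell (blue) in PAX3-FKHR-ER replicates 2 and 3, in each of the 6 pairs of arrays, with black bars at the medians. The values of PAX3-FKHR-ER replicates 2 and 3 chose the probe sets. Among the other 4 pairs, pK1 replicate 1 has medians of 0.73 and -0.45 and the other 3 lie near 0.

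In the fit to all 3 pairs the smallest p values belonged to genes that moved one way in each pair. Among lower genes these were MYL11 (-1.46 ± 0.18, adjusted p = 0.12), PHLDA1 (-0.83 ± 0.13, adjusted p = 0.44), MT1E (-0.71 ± 0.13, adjusted p = 0.521), MAP3K7CL (-0.65 ± 0.13, adjusted p = 0.521) and CIITA (-1.07 ± 0.21, adjusted p = 0.521), the coactivator of MHC class II genes. Among higher genes they were XRCC4 (1.14 ± 0.21, adjusted p = 0.521), POU4F1 (1.24 ± 0.24, adjusted p = 0.521), UBOX5 (0.77 ± 0.15, adjusted p = 0.521), IFI16 (1.10 ± 0.22, adjusted p = 0.521) and TMEM47 (0.89 ± 0.18, adjusted p = 0.521). MYOG had -1.42 ± 0.62 (adjusted p = 0.721) and CXCR4 1.74 ± 0.46 (adjusted p = 0.627) in that fit. None of them passed, and 0 probe sets exceeded 1 on the log2 scale in all 3 pairs.

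The change in PAX3-FKHR-ER cells was set against that in the vector cells of replicates 2 and 3. The difference between the changes passed for 7 probe sets (0.0525%), with 1313 at an unadjusted p under 0.05 (9.85%). They were 2 of CXCR4 and 1 each of BCHE and CAV1, with positive differences, and 1 each of GLRX, PLK2 and MYL11, with negative ones. MYOG missed the threshold with a difference of -2.74 (adjusted p = 0.053). Vector cells had little MYOG signal in replicate 2 (8.82 with and 10.3 without 4-OHT) and more in replicate 3 (101 with and 94.9 without). In replicate 2 a fall could hardly have been measured, so the difference for MYOG compared cells at unlike starting levels. For the remaining genes that passed within the PAX3-FKHR-ER cells, a difference from the vector cells was not shown.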

How the data were processed

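Per the submitters' processing notes, GCOS and MAS5 made the deposited values, which are probe set intensities on a linear scale. The deposited values of each array have the same trimmed mean, so the arrays were taken as already scaled. Detection calls and a genome build are not given in the sources used here. Probe sets were named from GEO's platform annotation: of 22215 non-control probe sets, 19065 had 1 symbol, 1043 had several and 2107 had none. Probe sets that share letters with related transcripts may read those too.

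Signals were taken as log2(signal + 16), which understates changes of dim genes, and the dimmest 40% by mean over 12 arrays (under 36.7) were left out, leaving 13329 probe sets and 8124 genes. That mean includes the compared arrays, so a probe set could enter the tests through the group where it was bright. This held, among others, for GREM1 (at its larger change), PLXNC1, PDE9A and SYTL2 with 4-OHT. It also held for MYBPH and RASSF4 (at the probe set that passed) without 4-OHT. Fits used limma 3.58.1 in R 4.3.3 (lmFit, eBayes with an intensity trend, two-sided, Benjamini-Hochberg at 0.05), with a block for each pair of arrays that share construct and replicate number. The fit to 3 pairs used 12 arrays (4 residual degrees of freedom) and that to replicates 2 and 3 used 8 (2 residual degrees of freedom). Deviations from group means correlated at 0.85, 0.70 and 0.71 between arrays of the same number, and at 0.23 or less between different numbers, so the numbers were taken to pair the samples. The code was tested on simulated data.

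The samples, the 34 gene lists, the fits and the rule for named genes were chosen with earlier results of these data known. That rule took, for each direction, 30 genes of largest change that passed without overlap in replicates 2 and 3, list members that passed and up to 3 more of each list, and 5 genes each way by smallest p for the other fits. A list is described by its brightest probe set per gene, by counts and medians. Promoter sequences came from RefSeq (GRCh38.p14). Plots used matplotlib 3.10.9 (Python 3.11.15).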

Additional observations from a re-analysis of the deposited data

Results flagged for a closer look

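These results stood out because the log2 change with 4-OHT differed between PAX3-FKHR-ER and pK1 cells in replicates 2 and 3 by the limma test of the difference itself. The CXCR4 probe set with the larger change had a difference of 2.60 (adjusted p = 0.00442), with changes in replicates 2 and 3 of 2.13 and 2.43 with the fusion, against -0.15 and -0.49 with the vector. Its second probe set differed by 2.45 (adjusted p = 0.00442). BCHE differed by 1.62 (adjusted p = 0.0194), with changes of 1.45 and 1.57 with the fusion, against -0.11 and -0.11 with the vector. CAV1 differed by 1.33 (adjusted p = 0.0496), with 1.23 and 1.39 with the fusion, against 0.01 and -0.06 with the vector. GLRX differed by -1.98 (adjusted p = 0.013), with -1.80 and -1.56 with the fusion, against 0.37 and 0.24 with the vector, so part of the difference lay in vector cells that moved the other way. PLK2 differed by -1.62 (adjusted p = 0.031), with -1.62 and -1.45 with the fusion, against 0.04 and 0.13 with the vector. MYL11 differed by -1.49 (adjusted p = 0.0496), with -1.59 and -1.76 with the fusion, against -0.02 and -0.36 with the vector. The vector cells of replicate 2 had little MYL11 signal (66.4 with and 67.6 without 4-OHT), and those of replicate 3 had much more (1747 with and 2244 without). The difference for MYL11 thus compared cells at unlike starting levels.

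Replicate 1 was not in that fit. Its changes under the PAX3-FKHR-ER and the pK1 label were 0.66 and 2.20 for CXCR4, 0.63 and 2.06 for BCHE, -0.12 and -0.15 for CAV1, -0.21 and -0.89 for GLRX, -0.09 and 0.24 for PLK2, and -1.02 and -0.86 for MYL11.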

How the results depend on the processing

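With all 3 pairs in the fit, 0 probe sets passed under each of the amounts added, filters, scalings and spread models tried, from the PAX3-FKHR-ER arrays alone and without the replicate block (62 at an unadjusted p under 0.05). Leaving out each replicate in turn gave 0 to 186, with 186 without replicate 1. In replicates 2 and 3 the 186 calls (106 higher, 80 lower) became 70 higher and 59 lower with 1 added in place of 16, and 144 and 96 with 64 added. With the 60% filter they were 101 and 74. They were 119 and 88 after quantile normalization, and 130 and 77 with equal medians. Without the signal filter, which tests more and dimmer probe sets, 37 passed (19 higher, 18 lower). Without an intensity trend 17 passed (10 higher, 7 lower). From the PAX3-FKHR-ER arrays alone 536 passed (303 higher, 233 lower). Without the replicate block, and without PAX3-FKHR-ER replicate 2 or 3, 0 were higher and 0 lower. List members past the threshold numbered 50, and 18 without the filter. The difference from vector cells passed for 7 probe sets, 44 with 64 added, 18 after quantile normalization, and 0 without the filter, without the trend (1759 and 1182 at an unadjusted p under 0.05) or without the replicate block (144). The difference of replicate 1 from the others passed for 1 probe set after quantile normalization. Where nothing is said of a cause, the cause was not tested.

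Of the named probe sets that passed in replicates 2 and 3, 118 were followed, and 0 turned their direction under any of these settings, pairs left out included. Every probe set that passed had moved the same way in both pairs. Quantile normalization and equal medians could therefore have turned a direction, but the other settings, pairs left out included, could not turn that of these probe sets. Those still past the threshold were 93 with 1 added, 117 with 64 added, 30 without the filter, 97 of the 97 measured with the 60% filter, 118 after quantile normalization, 117 with equal medians, 118 from the PAX3-FKHR-ER arrays alone, 16 without the trend, and 0 without the replicate block or with a pair left out. Among those that had not passed, ADISSP at its second probe set (-0.02) turned to 0.022 with equal medians. Leaving out a PAX3-FKHR-ER pair gave ESR1 -0.12 to 0.47, ADISSP -0.34 to 0.29, CHRNA1 -0.32 to 0.15, MAGED2 at its second probe set -0.96 to 0.050, and TPM1 -0.050 to 0.051. Of 204 list medians recomputed, 15 in 11 of the 34 lists turned their sign. These lay between -0.14 and 0.02 before and between -0.01 and 0.06 after, and included the Wnt, p53, apoptosis, matrix, adhesion, hypoxia, sterol, G1 and ribosomal lists. Without the filter the median of fusion targets was 0.04 in place of 0.26, and that of contraction genes -0.31 in place of -0.56. Detection calls were not used here, so dim signals could not be set against background.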

Other observations

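Further genes with large changes in PAX3-FKHR-ER replicates 2 and 3 belonged to none of the groups described. LDOC1, a leucine zipper protein first seen to be lost in cancers, read 142, 812 and 818 with 4-OHT, against 146, 290.4 and 211 without and changed by 1.65 ± 0.18 (adjusted p = 0.00808). ANK1, an ankyrin that ties membrane proteins to spectrin, read 448, 1079 and 1073 with 4-OHT, against 449, 489 and 391 without and changed by 1.27 ± 0.13 (adjusted p = 0.00755). GALNT10, which starts O-linked glycans, changed by 1.41 ± 0.18 (adjusted p = 0.00892), CDC42EP3, an effector of CDC42, by 1.25 ± 0.19 (adjusted p = 0.0188), and TMEM47, a claudin-related membrane protein, by 1.29 ± 0.19 (adjusted p = 0.0177). CDC42EP3 passed at 1 of its 3 probe sets, and the smallest change among them was 0.54. The deubiquitinase USP20 (1.26, adjusted p = 0.0498) and ADISSP (1.28, adjusted p = 0.0471) rose as well, but both were lower with 4-OHT in replicate 1, at -0.72 and -0.74. USP20 also rose in the vector cells of replicates 2 and 3, by 1.59 and 1.08. The limma difference between its changes in fusion and vector cells was -0.07 (adjusted p = 0.974), so its rise was shared by the vector cells.

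Among lower genes LINC00339, a long noncoding RNA, read 37.6, 17 and 11.8 with 4-OHT, against 34.2, 101 and 81.5 without and changed by -1.82 ± 0.22 (adjusted p = 0.0088). IQSEC1, an exchange factor for ARF GTPases, changed by -1.68 ± 0.25 (adjusted p = 0.0177), the collagen chain COL5A3 by -1.52 ± 0.19 (adjusted p = 0.00892) and MICAL2, an oxidoreductase of actin, by -1.22 ± 0.24 (adjusted p = 0.0488). The IQSEC1 value came from 1 of its 2 probe sets, and the other changed by -0.25 without passing. OLFML3 changed by -1.21 ± 0.17 (adjusted p = 0.0128) and C1orf105 by -1.13 ± 0.16 (adjusted p = 0.0156). MAGED2, of the melanoma antigen family, read 2021, 112 and 83.9 with 4-OHT, against 2641, 225 and 220.1 without and changed by -1.07 ± 0.15 (adjusted p = 0.0142), with replicate 1 far above the other arrays in both groups. The brighter of the 2 MAGED2 probe sets changed by -0.46 and did not pass.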
